A study of Mus musculus with 10 samples.

Results

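Group 2 innate lymphoid cells (ILC2s) from the lung were compared with ILC2s from the small intestine (SI) by the openness of their chromatin, measured with ATAC-seq. Of the 50039 open chromatin regions (OCRs) that had been defined over ILC2s of 5 mouse tissues, 49981 held at least 1 count in the 4 lung and SI libraries, and these 49981 OCRs are the members described here. The remaining 58 OCRs had no count in any of the 10 libraries. The mice were C57BL/6 males of 6 weeks, and each tissue was represented by 2 libraries of 50000 sorted cells. Cells of 16 mice were pooled for a lung library and cells of 10 mice for an SI library, so that a p-value here measures the spread between such pools. Lung ILC2s were gated as lineage-negative CD45+ CD127+ ST2+ CD25+ cells after digestion of the tissue with collagenase and DNase. SI ILC2s were gated as lineage-negative CD45+ CD127+ KLRG1+ cells with intermediate Thy1, after the epithelium had been shaken off with DTT and EDTA and the rest digested. The gate and the isolation therefore changed with the tissue, and their part in a difference between lung and SI cannot be told apart from that of the tissue. The large intestine (LI), pancreas and bone marrow (BM) libraries entered the same fit and are used below as further readouts. LI cells had been sorted with the lung gate but isolated as the SI cells were. Assigned counts came to 22993276 and 32797872 in the lung libraries and to 18960309 and 26080061 in the SI libraries. The replicates of the lung correlated more closely (Spearman's rho over OCRs 0.975) than those of SI (0.927).

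ILC2s are lymphocytes without rearranged antigen receptors that settle in tissues early in life and secrete type 2 cytokines such as IL-5 and IL-13 upon epithelial alarm signals. In the lung they respond mainly to IL-33, whose receptor ST2 is encoded by Il1rl1, whereas ILC2s of the SI respond mainly to IL-25 from tuft cells, through the receptor subunit encoded by Il17rb. ATAC-seq marks OCRs by the insertions of the Tn5 transposase, which cuts where DNA is not shielded by nucleosomes: promoters tend to be open in many cell types, and enhancers to be open in few. A count in an OCR is thus a measure of openness, not of transcription. Each OCR is called here by the gene with the nearest RefSeq transcription start site (TSS), which is a convention and does not show that the OCR acts on that gene.

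The sequences of 8 OCRs are shown first, since they are among the most distinct OCRs of the genes described below. They were chosen after the values were seen. Each is a stretch of 200 bases from the central 500 bases of its OCR, on the plus strand of GRCm38/mm10, from RefSeq. The stretch was placed where it held the most matches to the letters below, so the choice of window favours matches. Capitals mark matches on either strand to the letters of 5 factor families. These are AGATAA for GATA factors, TGANTCA for AP-1, TGTGGTT for RUNX, GAAA followed by any 2 bases and GAAA again for interferon regulatory factors (IRF), and TTGCGTG for the aryl hydrocarbon receptor (AHR). None of these strings contains another, and a match is a description of the letters and not a binding site. In the 500 bases around the centre, the GATA letters were found in 24.7% of all members, those of AP-1 in 23.2%, of RUNX in 17.3%, of IRF in 7.23% and of AHR in 2.01%. The first 4 sequences are of OCRs that were more open in lung ILC2s: intron 8 of Il1rl1 (chr1:40448420-40448619), the OCR with the largest difference toward the lung, whose nearest TSS is that of Gm14616 (chr2:174813356-174813555), intron 1 of Ramp1 (chr1:91193326-91193525) and an OCR upstream of Arg1 (chr10:24931588-24931787).
Il1rl1: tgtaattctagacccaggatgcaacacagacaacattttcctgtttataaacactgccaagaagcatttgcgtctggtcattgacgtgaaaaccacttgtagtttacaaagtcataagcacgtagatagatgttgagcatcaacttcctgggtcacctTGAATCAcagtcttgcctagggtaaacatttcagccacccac
Gm14616: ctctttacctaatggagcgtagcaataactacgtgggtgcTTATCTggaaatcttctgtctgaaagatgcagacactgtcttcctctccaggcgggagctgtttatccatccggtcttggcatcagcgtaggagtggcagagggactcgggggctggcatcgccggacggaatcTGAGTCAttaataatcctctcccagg
Ramp1: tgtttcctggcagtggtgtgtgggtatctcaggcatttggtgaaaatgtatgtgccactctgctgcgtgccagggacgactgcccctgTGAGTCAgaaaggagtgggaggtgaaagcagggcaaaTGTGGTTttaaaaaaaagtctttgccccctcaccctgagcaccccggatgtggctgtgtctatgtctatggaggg
Arg1: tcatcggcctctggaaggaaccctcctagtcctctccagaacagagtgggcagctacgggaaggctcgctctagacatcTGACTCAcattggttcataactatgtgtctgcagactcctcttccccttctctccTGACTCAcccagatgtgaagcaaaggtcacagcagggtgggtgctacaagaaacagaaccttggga
The AP-1 letters occur in these 4 windows, in the Arg1 window at 2 places, but not in the corresponding window of the Irf4 OCR that is described below and was also higher in lung. The other 4 sequences are of OCRs that were more open in SI ILC2s: the promoters of Cyp1a1 (chr9:57696615-57696814), Cyp1b1 (chr17:79715755-79715954) and Gzma (chr13:113100957-113101156), and intron 1 of Ret (chr6:118189845-118190044).
Cyp1a1: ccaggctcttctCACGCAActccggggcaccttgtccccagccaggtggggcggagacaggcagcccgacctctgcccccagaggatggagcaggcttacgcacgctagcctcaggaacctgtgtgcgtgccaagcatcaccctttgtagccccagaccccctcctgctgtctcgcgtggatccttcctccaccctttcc
Cyp1b1: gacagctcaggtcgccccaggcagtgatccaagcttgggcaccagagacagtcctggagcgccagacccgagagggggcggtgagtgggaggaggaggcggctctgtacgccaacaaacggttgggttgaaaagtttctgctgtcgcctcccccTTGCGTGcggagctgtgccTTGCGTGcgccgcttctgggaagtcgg
Gzma: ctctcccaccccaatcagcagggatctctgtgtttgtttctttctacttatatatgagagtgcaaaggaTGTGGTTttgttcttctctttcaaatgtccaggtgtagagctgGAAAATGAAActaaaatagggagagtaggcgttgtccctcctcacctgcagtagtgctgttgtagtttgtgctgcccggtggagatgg
Ret: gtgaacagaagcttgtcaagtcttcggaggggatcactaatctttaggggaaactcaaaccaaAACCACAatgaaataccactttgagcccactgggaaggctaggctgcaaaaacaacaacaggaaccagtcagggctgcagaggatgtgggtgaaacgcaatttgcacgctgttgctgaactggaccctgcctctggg
The promoters of Cyp1a1 and Cyp1b1, enzymes known as targets of AHR, held the AHR letters once and at 2 places, respectively. The Gzma window held the RUNX and the IRF letters, and the Ret window the RUNX letters.

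Lung and SI ILC2s differed at many OCRs, with about as many OCRs more open on either side. At an adjusted p under 0.05 (edgeR's quasi-likelihood test, Benjamini-Hochberg adjustment over all members), 4930 OCRs (9.86%) were more open in lung ILC2s and 5559 (11.1%) in SI ILC2s. The log2 fold change of lung over SI ranged from 5.76 to -6.49, with a median over all members of -0.04. Among the called OCRs, differences toward SI were the larger ones: 484 OCRs that were higher in SI passed a log2 fold change of 3, against 219 of those that were higher in lung, and the medians over the called OCRs were -1.54 and 1.35. The median standard error was also larger in the OCRs called toward SI (0.37 against 0.29), which raises the difference needed for a call. With 2 libraries against 2, an exact permutation test of a single OCR cannot go below p = 0.333, so the calls rest on the spread that the fit shares across OCRs and across the 5 tissues. Without lung 1 the counts fell to 3510 and 3598, and without lung 2 to 2865 and 2230, whereas 4200 and 3764 were called without SI 1 and 5712 and 5476 were found without SI 2. In such a fit the lone library of a tissue is assumed to vary as the other tissues do. Among members of very high signal, the 50 with a mean log2 CPM over 8 took 8.99% to 16.1% of the scaled counts of a library. None of these 50 was called toward the lung and 7 toward SI, and 33 of them lay for the greater part in repeats.

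**Figure D1:**
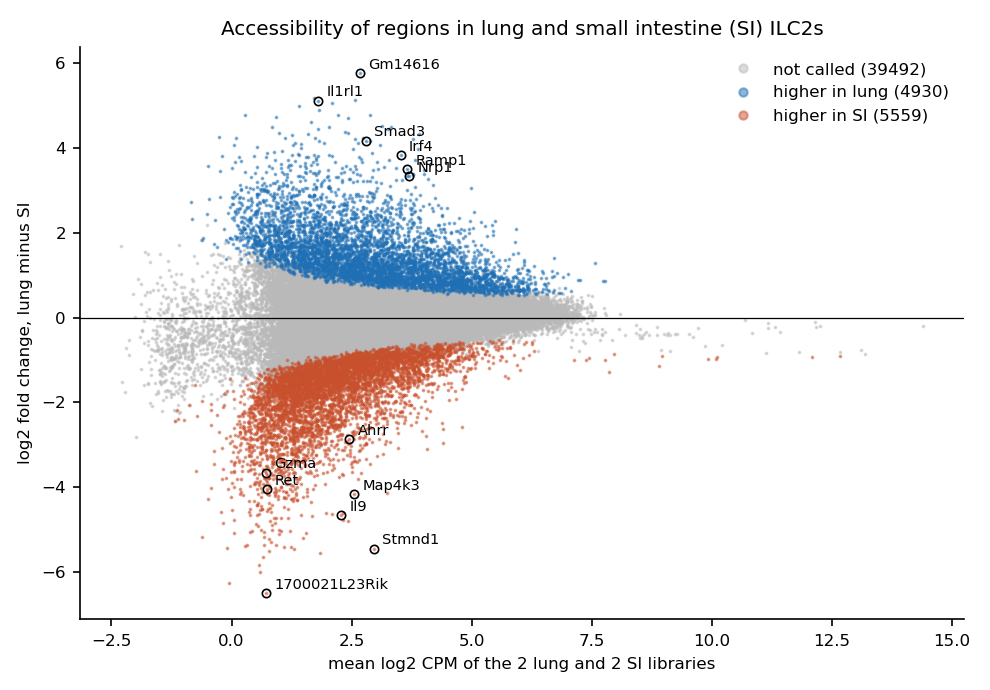
Log2 fold change of lung over SI ILC2s (vertical axis) against the mean log2 CPM of the 2 lung and 2 SI libraries (horizontal axis), 1 point for each of the 49981 OCRs. Points of the 4930 OCRs higher in lung are blue, those of the 5559 higher in SI red, and the 39492 not called grey, and the circled OCRs are named by the gene of the nearest TSS.

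Promoters were less frequent among the called OCRs than among all members. Promoters, here the stretch from 1000 bases before to 100 bases after a TSS, made up 19.0% of all members but 6.59% of the OCRs higher in lung and 7.11% of those higher in SI. Without SI 2 these shares were 11.5% and 10.9%, and without SI 1 they were 7.76% and 4.65%. In other words, 3.42% and 4.15% of the 9514 promoter OCRs were called toward lung and SI, against 10.8% and 13.0% of the OCRs within genes and 12.2% and 12.4% of those between genes. The median distance to the nearest TSS was 21.1 kb in the OCRs higher in lung, 18.5 kb in those higher in SI and 10.8 kb in all members. Called OCRs that lay next to each other within 50 kb mostly changed together: of 3267 such pairs, 3036 (92.9%) pointed the same way. Of the 16326 genes with a member, 2011 had OCRs called toward the lung and none toward SI, 2898 had OCRs called toward SI and none toward the lung, and 527 had both.

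The OCRs with the largest differences toward the lung were nearly closed in SI ILC2s. These named OCRs had at least 5 CPM, that is, counts in the OCR scaled by TMM to a common total of 1e6 in both libraries of the higher tissue, and only 1 is taken per gene. The first of them lay between genes, 42.4 kb upstream of the non-coding gene Gm14616 (chr2:174813181-174813730), with Edn3, the gene of the vasoactive peptide endothelin 3, as the nearest coding gene at 52.8 kb. Its level was 43.0 and 45.7 CPM in the lung libraries and 0.867 and 0.766 CPM in the SI libraries, a log2 fold change of 5.76 ± 0.28 (SE; adjusted p = 1.1e-08). LI ILC2s, at 3.05 and 3.13 CPM, stood near SI in this OCR. Il1rl1 followed, with an OCR 8.22 kb upstream of its TSS at 11.2 and 28.1 CPM in the lung and 0.818 and 0.314 CPM in SI (log2 fold change 5.17 ± 0.51). Here the lung libraries differed from each other, but the lower of them was still far above both SI libraries. An OCR nearest to Gm32815 on chromosome 14 reached 44.0 and 24.8 CPM in the lung and 1.11 and 0.871 CPM in SI, and one 27.8 kb downstream of the start of Mc3r, a melanocortin receptor gene, 18.3 and 28.8 CPM against 0.963 and 0.488 CPM. The others of the 10 OCRs were in intron 4 of Shank2 and nearest to Zcchc14, Tcim, Entpd4, Mtpap and Gm30712, with log2 fold changes between 4.98 and 4.61. The nearest coding gene to the last of these was Maf, which encodes a transcription factor of the large Maf family, at 315 kb.

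On the SI side, the largest difference was in an OCR between genes on chromosome 4 (chr4:124233663-124234239), 98.8 kb downstream of the start of 1700021L23Rik. It had 0.235 and 0.0552 CPM in the lung and 9.29 and 15.5 CPM in SI, a log2 fold change of -6.49 ± 0.62 (adjusted p = 3.6e-06). LI ILC2s had 7.32 and 6.17 CPM there and so were open at this OCR as well. Intron 2 of Prr5, which encodes a subunit of the kinase complex mTORC2, had 0.588 and 0.442 CPM in the lung and 34.7 and 13.1 CPM in SI (-5.54 ± 0.55). The OCR 114 kb upstream of Stmnd1 was the strongest of the group in SI, at 38.5 and 66.7 CPM, against 1.84 and 0.662 CPM in the lung (-5.44 ± 0.45). Both lung libraries were well below both SI libraries in each of these OCRs, although SI 1 and SI 2 could differ by more than the lung libraries did. The rest of the 10 were nearest to Pabpc2, Cdrt4os1, Thada, Ankrd9, 4930538L07Rik, Rpn1 and Stard6, with log2 fold changes from -5.20 to -4.77, and the OCR nearest to Ankrd9 lay within intron 12 of Tecpr2. The 10 OCRs of either side kept an adjusted p under 0.05 without any of the 4 libraries in turn.

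**Figure D2:**
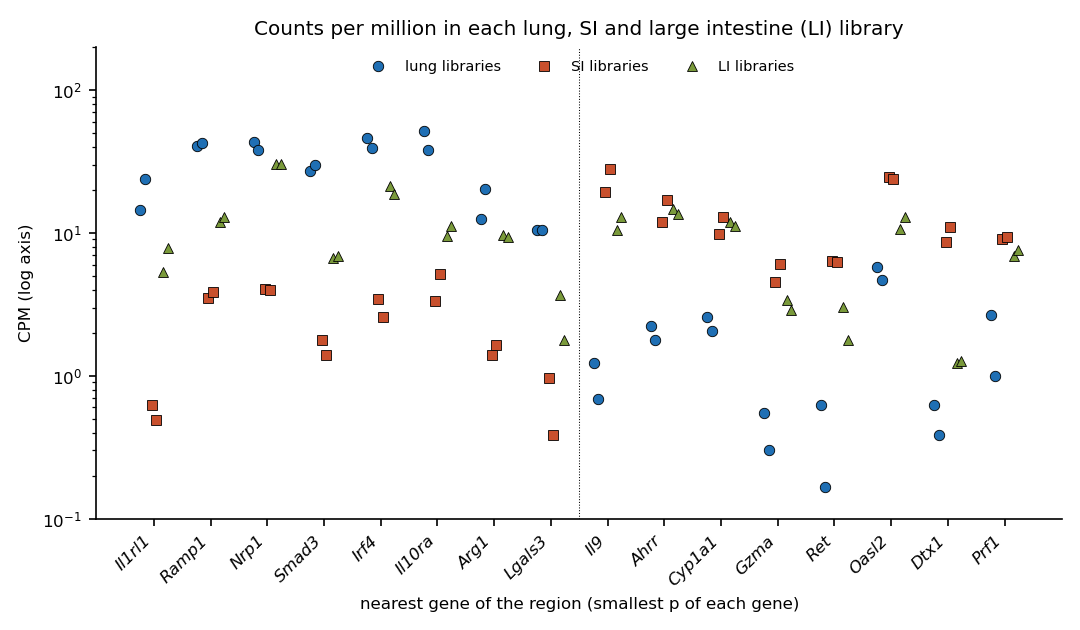
CPM on a log axis in each of the 2 lung (blue circles), 2 SI (red squares) and 2 LI (green triangles) libraries, for the OCR with the smallest p of 16 genes. The 8 OCRs left of the dotted line were called higher in lung and the 8 on the right higher in SI; LI libraries lie beside SI at Ahrr and Cyp1a1, nearer to the lung at Nrp1 and Dtx1, and between the tissues at Smad3.

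Among promoters, that of Adgrf5, an adhesion G protein-coupled receptor, differed most toward the lung. It had 22.9 and 22.6 CPM in the lung and 1.97 and 1.64 CPM in SI (log2 fold change 3.66 ± 0.30, adjusted p = 1.1e-06). The Il1rl1 promoter stood at 9.25 and 12.5 CPM in the lung against 1.69 and 0.523 CPM in SI (3.35 ± 0.40). Promoters of Gm14936, Spon2, Mtmr7 and Ctnna2 followed, with log2 fold changes of 3.14 to 2.70. Toward SI, the promoter of Heyl, a transcriptional repressor known as a Notch target, had 0.627 and 0.607 CPM in the lung and 7.03 and 7.25 CPM in SI (-3.52 ± 0.47). The Gzma promoter, whose gene encodes the protease granzyme A, had 0.941 and 0.304 CPM in the lung and 6.02 and 6.27 CPM in SI (-3.34 ± 0.53). In these promoters both libraries of the higher tissue were above both of the other, although the low values of a tissue could differ over 3 times, as at Gzma and Il1rl1. Gm7592 and Prr5 belonged to the same group (-3.34 and -3.13). For the remaining promoters the SI libraries disagreed: the Wdfy4 promoter had 42.6 CPM in SI 1 and 6.65 CPM in SI 2 (-4.62 ± 0.67), and that of A530040E14Rik 58.3 and 8.92 CPM (-3.22 ± 0.66), and the latter was not called without SI 1 (adjusted p = 0.0796).

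Several genes had many OCRs that were called in the same direction. The non-coding gene 0610040F04Rik on chromosome 6 had 28 of its 45 OCRs called toward the lung, and for 41 of the 45 the nearest coding gene was Bhlhe40, a transcription factor of the clock and of cytokine control. Its strongest OCR stood at 32.2 and 29.1 CPM in the lung and 2.07 and 1.39 CPM in SI (4.16 ± 0.29). Upstream of Bach2, which encodes a repressor that binds AP-1-type sites, 21 of 29 OCRs were called toward the lung, between 179 and 11.5 kb before the TSS. All 19 OCRs of Il1rl1 were called toward the lung, from 49.1 kb upstream to 8.89 kb downstream of the TSS, with log2 fold changes between 0.88 and 5.17. Mdfic (18 of 26), Ldlrad4 (18 of 32), Inpp4b (18 of 45), Gm41414 (14 of 19) and Nrp1 (13 of 22) completed the list for the lung, and of these 5 genes Mdfic alone had an OCR called toward SI, 1 in number. For SI, Rad51b led with 16 of 23 OCRs, followed by 0610039H22Rik (15 of 18, all nearest to the coding gene Msi2) and Map4k3 (14 of 16). The OCR 7.07 kb upstream of Map4k3 had 2.04 and 0.828 CPM in the lung and 22.1 and 27.9 CPM in SI, and LI ILC2s matched SI there at 29.9 and 31.6 CPM. Cxxc5 (13 of 15), Nckap5 (13 of 15), Nfkbiz (13 of 27), Adgrl2 (12 of 21) and Pde4b (12 of 28) followed. Of these, Nfkbiz, Adgrl2 and Pde4b each also had 1 OCR called toward the lung, and for Pde4b, which encodes a cyclic AMP phosphodiesterase, this was the OCR with the smallest p of the gene (6.74 and 6.16 CPM in the lung, 0.674 and 0.453 CPM in SI).

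**Figure D3:**
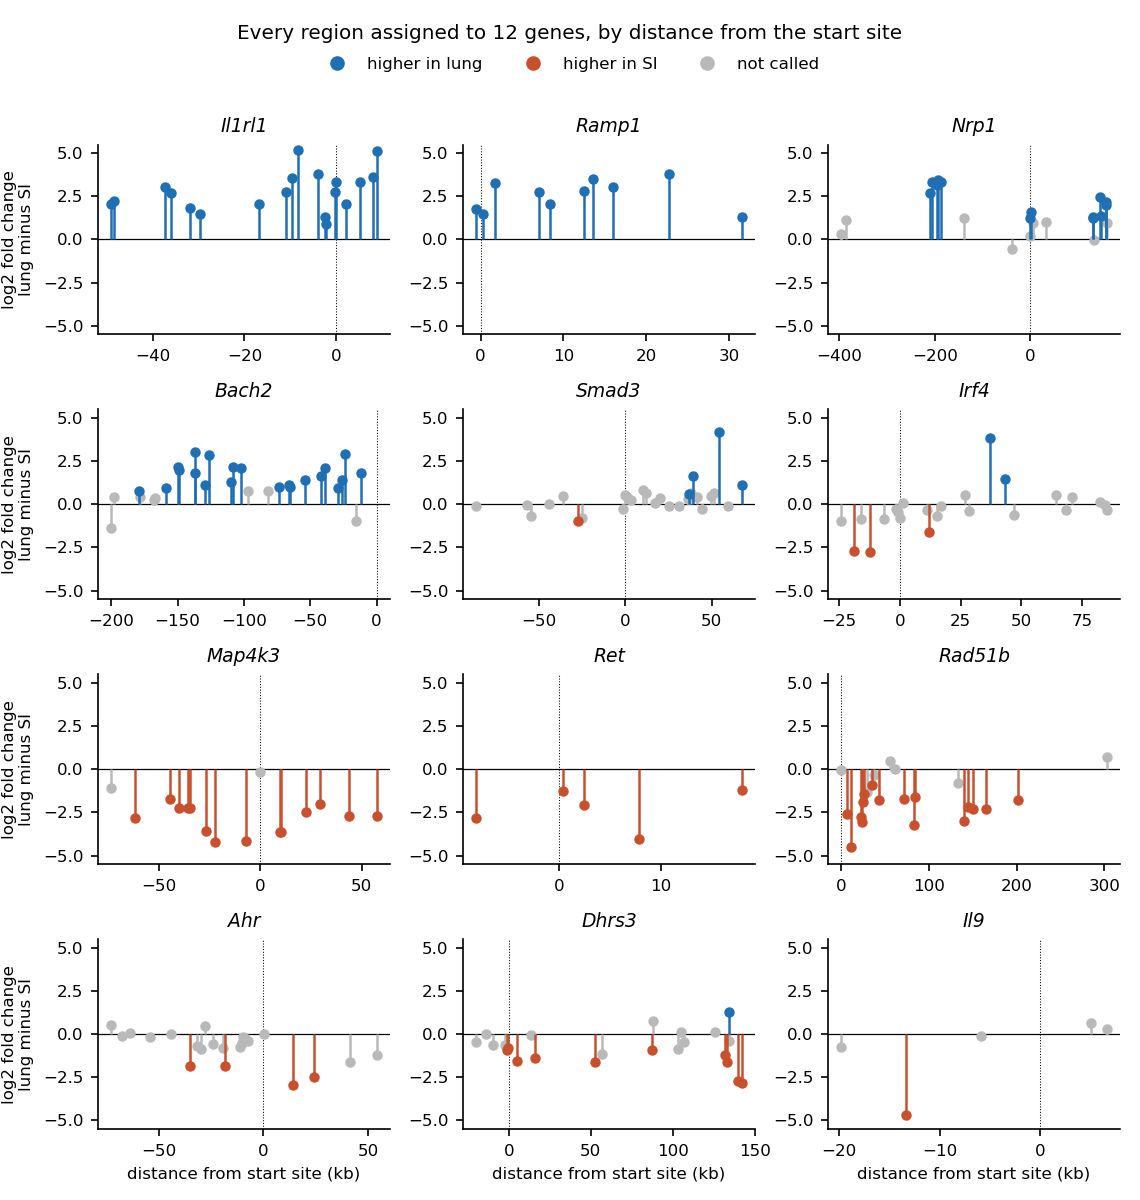
Log2 fold change of lung over SI (vertical axis) of every OCR assigned to 12 genes, by its distance in kb from the TSS (horizontal axis, dotted line at the TSS). At Il1rl1, Ramp1 and Bach2 the called OCRs are blue (higher in lung), at Map4k3, Ret and Rad51b red (higher in SI), and at Smad3 and Irf4 both colours occur among grey OCRs that were not called.

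The genes of the sort markers come with a caution, since lung ILC2s were gated on ST2 and CD25 and SI ILC2s on KLRG1 and Thy1. Of the 89 OCRs of Il1rl1, Il2ra, Il7r, Ptprc, Klrg1 and Thy1, 34 were called toward the lung and 3 toward SI, with a median log2 fold change of 0.48 (25 and 1 without lung 2). Without Il1rl1 the counts were 15 (21.4%) and 3 (4.29%) of 70, with a median of 0.28, against 9.86% and 11.1% of all members. In its most distinct OCR, intron 8, Il1rl1 had 14.5 and 23.8 CPM in the lung and 0.626 and 0.488 CPM in SI (5.11 ± 0.38, adjusted p = 4.3e-07). LI ILC2s, which had been gated on ST2 as the lung cells were, reached 5.32 and 7.82 CPM, and pancreas ILC2s 21.1 and 17.0 CPM. BM ILC2s, also gated on ST2, had 1.47 and 1.06 CPM, close to SI. Il2ra, which encodes CD25, had 11.8 and 18.8 CPM in the lung and 2.94 and 3.45 CPM in SI at an OCR 7.5 kb upstream (2.26 ± 0.30), and Thy1 13.5 and 19.2 CPM against 3.51 and 3.41 CPM (2.24 ± 0.31). At Il7r, 5 of 16 OCRs were called toward the lung, at Ptprc 1 toward the lung and 2 toward SI of 20. No OCR of Klrg1 was called: its OCR with the smallest p had 3.49 and 3.53 CPM in the lung and 5.58 and 6.65 CPM in SI (-0.80 ± 0.32, adjusted p = 0.0849).

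Genes of cytokine receptors had more OCRs called toward the lung than toward SI. Of their 159 OCRs, 55 (34.6%) were called toward the lung and 6 (3.77%) toward SI, against 9.86% and 11.1% of all members, with a median of 0.37. Leaving out Il1rl1, 36 of 140 (25.7%) were called toward the lung and 6 toward SI. This does not leave out the whole locus on chromosome 1. The IL-18 and IL-1 receptor genes beside Il1rl1 also had calls toward the lung and none toward SI. These were 6 of 9 OCRs at Il18rap, 3 of 6 at Il18r1, 2 of 5 at Il1r1 and 2 of 6 at Il1r2. Over all 159, the counts were 37 and 2 without lung 2 and 50 and 3 without lung 1. Il10ra, which encodes the ligand-binding chain of the IL-10 receptor, had 51.8 and 38.3 CPM in the lung and 3.32 and 5.19 CPM in SI at an OCR in intron 4 (3.39 ± 0.26, adjusted p = 6.1e-07). For the IL-18 receptor, intron 10 of Il18rap had 9.21 and 12.8 CPM in the lung and 1.01 and 1.05 CPM in SI (3.41 ± 0.36). In both genes the SI libraries were far below the lung libraries. Receptors toward SI were fewer and the differences smaller. Il17rb, which encodes the IL-25 receptor subunit, had both of its 2 OCRs called toward SI, with 1.72 and 1.77 CPM in the lung and 5.25 and 7.56 CPM in SI at exon 9 (-1.87 ± 0.36, adjusted p = 0.00141). Il6st, the signal-transducing chain for the IL-6 family, had 3.41 and 3.09 CPM against 16.2 and 8.26 CPM at an OCR 38.6 kb upstream (-1.91 ± 0.33). The receptor genes for IL-33 and IL-25 thus had OCRs called in opposite directions, Il1rl1 toward the lung and Il17rb toward SI. Crlf2, which encodes a receptor chain for TSLP, a further epithelial alarm cytokine, had no call among 4 OCRs.

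Genes of ILC2 identity, mostly transcription factors that ILC2s need, contained differences in both directions. The list also holds Il1rl1, the gene of ST2, which was in the lung gate but not in the SI gate. All 19 OCRs of Il1rl1 were called toward the lung and are part of the counts that follow. Of 299 OCRs of 20 genes, 67 (22.4%) were called toward the lung and 22 (7.36%) toward SI, with a median of 0.18, and 7 genes held calls of both kinds. Without lung 2 the counts were 50 and 6. Gata3, the master regulator of ILC2s, had 3 of 19 OCRs called toward the lung and 1 toward SI. The most distinct of these, 194 kb downstream of the start, had 43.8 and 45.5 CPM in the lung and 22.5 and 17.1 CPM in SI (1.17 ± 0.23, adjusted p = 0.00173). Rora, which ILC2s require for development, had 11 of 29 OCRs called toward the lung and 2 toward SI. Bcl11b had 24.6 and 31.4 CPM in the lung and 3.03 and 6.65 CPM in SI in intron 3 (2.52 ± 0.32). The gene of the costimulatory receptor Icos had 25.4 and 26.4 CPM against 4.14 and 5.5 CPM (2.42 ± 0.22), and LI ILC2s there stood with the lung at 32.6 and 35.1 CPM. Id2 (1.83 ± 0.37) and Gfi1 (1.02 ± 0.20) were likewise higher in lung at their OCR with the smallest p, as was Areg, the gene of amphiregulin (1.25 ± 0.38, adjusted p = 0.0253, and above 0.05 without lung 1, lung 2 or SI 1). Lmo4 showed the largest difference toward SI, with 0.823 and 0.524 CPM in the lung and 8.47 and 10.1 CPM in SI at an OCR 106 kb upstream (-3.8 ± 0.40), and 5 of its 15 OCRs were called toward SI. Several genes had their OCR with the smallest p higher in SI while other OCRs of the gene were called toward the lung: Tox had 3 OCRs called toward the lung and 1 toward SI, Ets1 had 5 and 1, Zbtb16 1 and 1, and Tcf7 1 and 3. The OCR of Tox (-1.43 ± 0.30) kept its call toward SI without each library in turn. Those of Ets1 (-1.25 ± 0.29), Zbtb16 (-1.24 ± 0.30), Tcf7 (-1.18 ± 0.26) and Nfil3 (-1.85 ± 0.44) each lost that call without lung 2. The same held for the neuromedin U receptor gene Nmur1 (-1.41 ± 0.33) without lung 1 or lung 2. Ptpn13 had no call among 10 OCRs.

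The effector genes divided between the tissues. Of their 101 OCRs, 24 (23.8%) were called toward the lung and 18 (17.8%) toward SI, against 9.86% and 11.1% of all members. Their median was 0.22. The counts were 19 and 9 without lung 1 and 14 and 11 without lung 2. Il9, whose product is a type 2 cytokine and growth factor of mast cells, had the largest difference toward SI, at an OCR 13.4 kb upstream with 1.22 and 0.690 CPM in the lung and 19.4 and 27.9 CPM in SI (-4.66 ± 0.42, adjusted p = 2.3e-06). None of the other 4 OCRs of Il9 was called. Il6 and Il10 each had 6 OCRs called toward SI, with -2.11 ± 0.31 at the most distinct OCR of Il6. In the corresponding OCR of Il10, in intron 4, SI 1 and SI 2 differed (29.8 and 9.44 CPM, against 3.37 and 3.06 CPM in the lung). The OCR 4.37 kb upstream of the chemokine gene Ccl5 had 5.80 and 7.2 CPM in the lung and 30.8 and 23.8 CPM in SI (-2.07 ± 0.25). Among the cytokines of the type 2 locus on chromosome 11, the Il4 promoter was higher in SI (8.0 and 9.72 against 17.5 and 22.1 CPM, -1.16 ± 0.24). An OCR 3.59 kb from the Il13 start was higher in lung (19.9 and 29.8 against 6.74 and 9.75 CPM, 1.59 ± 0.29), although 2 other OCRs of Il13 were called toward SI. The OCR of Il5 with the smallest p had 8.15 and 9.52 CPM in the lung and 3.8 and 6.44 CPM in SI and did not pass (0.78 ± 0.31, adjusted p = 0.0923), and the OCR of Il3 was nearly level (-0.11 ± 0.22). Arg1, which encodes the arginine-consuming enzyme arginase 1, had 9 of 16 OCRs called toward the lung, and the one 4.22 kb upstream had 12.4 and 20.3 CPM in the lung and 1.40 and 1.64 CPM in SI (3.42 ± 0.33). The promoter of the chemokine gene Ccl1 (34.6 and 34.9 against 10.3 and 11.3 CPM) and intron 1 of Il1rn (2.82 and 2.21 against 0.722 and 0.488 CPM) were higher in lung as well. Calca (1.32 ± 0.27), Tnf (0.91 ± 0.25) and Csf2 (0.80 ± 0.27) showed smaller differences toward the lung, and those of Tnf and Csf2 did not hold without lung 1 or lung 2. No OCR was assigned to Penk.

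The gene group with the highest share of OCRs called toward the lung was that of galectins, S100 proteins and related migration genes, with 28 of 69 (40.6%) toward the lung, 0 toward SI and a median of 0.62. Calls were spread over 13 of its 14 genes, and 15 OCRs were called toward the lung without lung 2 (0 toward SI). The OCR 6.87 kb upstream of Lgals3, which encodes galectin-3, had 10.4 and 10.5 CPM in the lung and 0.963 and 0.383 CPM in SI (4.0 ± 0.43). Anxa1, the gene of annexin A1, had 11.7 and 12.5 CPM against 1.44 and 1.67 CPM (2.95 ± 0.31), and Vim, the gene of vimentin, 3.25 and 3.09 CPM against 0.722 and 0.418 CPM (2.49 ± 0.44). The lung libraries were above the SI libraries in all of these. At Lgals1 the difference was small (31.8 and 30.4 against 11.1 and 20.9 CPM, 0.96 ± 0.26), and it passed neither without lung 1 nor without lung 2 or SI 1.

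Genes of homing and tissue residency had 62 of 247 OCRs (25.1%) called toward the lung and 20 (8.10%) toward SI, and 42 and 7 without lung 2 or 52 and 11 without lung 1. Nrp1, which encodes the co-receptor neuropilin 1, had 43.5 and 38.0 CPM in the lung and 4.04 and 4.01 CPM in SI at an OCR 188 kb upstream (3.34 ± 0.23, adjusted p = 2.1e-07). At that OCR LI ILC2s had 30.2 and 30.2 CPM, closer to the lung than to SI. Cxcr4, whose product responds to CXCL12, and Cd44, a hyaluronan receptor gene, had 12 OCRs each called toward the lung. Together with the 13 of Nrp1, these made up most of the 62 calls of the list toward the lung. The excess over the 9.86% of all members called toward the lung therefore lay largely at these genes. Toward SI, the share of all members was 11.1%. The integrin beta 1 gene Itgb1 (5.68 and 4.22 against 0.626 and 0.314 CPM) was low overall but separate between the tissues. Chemokine receptors were found on the SI side, too: Ccr6 had 2.0 and 0.883 CPM in the lung and 9.15 and 5.09 CPM in SI (-2.32 ± 0.46), and Ccr4 had 2.12 and 2.95 CPM against 6.74 and 13.8 CPM (-2.02 ± 0.43). Gpr15, a receptor gene known for homing to the large intestine, had 7.06 and 5.30 CPM in the lung, 16.5 and 26.7 CPM in SI (-1.81 ± 0.29) and 29.0 and 37.8 CPM in LI.

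The TGF-beta and SMAD group had 29 of 155 OCRs (18.7%) called toward the lung and 10 (6.45%) toward SI, and 12 and 5 without lung 2 or 21 and 6 without lung 1. Smad3 encodes a transcription factor that carries the TGF-beta signal to the nucleus. An OCR in its intron 1 had 27.1 and 29.9 CPM in the lung and 1.78 and 1.39 CPM in SI (4.17 ± 0.29, adjusted p = 2.5e-07), while 3 further OCRs of Smad3 were called toward the lung, 1 toward SI and 23 were not called. Pmepa1 and Ski, both of which encode inhibitors of SMAD signalling, had 8 and 3 of 10 OCRs called toward the lung (2.89 ± 0.26 and 2.23 ± 0.22 at their most distinct OCR). Of the receptor genes, Tgfbr2 had 3 OCRs called toward the lung (1.8 ± 0.23) and Tgfbr1 5 toward SI. The most distinct OCR of Tgfbr1 rested on unequal SI libraries (0.627 and 0.221 CPM in the lung, 18.6 and 3.0 CPM in SI, -4.71 ± 0.80). Smad1, which acts in BMP signalling, was higher in SI (2.55 and 2.48 against 9.73 and 10.2 CPM, -1.99 ± 0.29), as was Smad6 (-0.88 ± 0.28, not called without lung 1, lung 2 or SI 2). An OCR 59 kb from the start of Smad7, an inhibitor of the pathway, was higher in lung (24.1 and 21.7 against 9.97 and 11 CPM, 1.12 ± 0.24).

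Receptors for neuropeptides were marked by Ramp1 on the lung side and Ret on the SI side. Over the whole list, 19 of 78 OCRs were called toward the lung and 7 toward SI, and 13 and 3 without lung 2. The 19 and 7 were 24.4% and 8.97% of the list, against 9.86% and 11.1% of all members. All 10 OCRs of Ramp1, which encodes a subunit of the receptor for calcitonin gene-related peptide, were called toward the lung. The OCR in intron 1 had 40.3 and 42.9 CPM in the lung, 3.51 and 3.87 CPM in SI (3.49 ± 0.22, adjusted p = 1.4e-07) and 11.9 and 12.9 CPM in LI. Calcrl, which encodes the partner of RAMP1 in this receptor, had 4 of 9 OCRs called toward the lung, with 14.8 and 9.27 CPM against 1.83 and 1.92 CPM at the most distinct of them (2.68 ± 0.31). Both chains of the receptor thus had OCRs that were several times more open in the lung. All 5 OCRs of Ret, a receptor tyrosine kinase gene for neurotrophic factors of the GDNF family, were called toward SI. The one in intron 1 had 0.627 and 0.166 CPM in the lung, 6.35 and 6.2 CPM in SI (-4.04 ± 0.55) and 3.05 and 1.78 CPM in LI. Chrm3 (-1.92 ± 0.44) and Nmur1 had calls that were each lost without 1 or more libraries, the highest adjusted p being 0.0926 and 0.0593.

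Further lists held more calls toward the lung than toward SI, and did so without any of the 4 libraries as well, with lower counts without lung 2. AP-1 genes had 34 of 146 OCRs (23.3%) toward the lung and 13 (8.90%) toward SI. Of the 34, 21 were of Bach2 (29.4 and 23.5 against 4.28 and 3.10 CPM, 2.84 ± 0.29), which had 0 OCRs called toward SI. The excess toward the lung in the AP-1 list therefore lay at Bach2. The OCR with the smallest p was higher in lung for Fosl2 (1.77 ± 0.34) and Bach1 (1.43 ± 0.31), and higher in SI for Batf3 (-2.09 ± 0.41), Fos (-2.09 ± 0.38) and Maf (-2.0 ± 0.38). Bach1 had 1 call in either direction, Fos 3, and Maf 3 toward the lung and 4 toward SI. Lipid mediator genes had 21 of 87 OCRs toward the lung and 5 toward SI (12 and 3 without lung 2): Alox5 and Alox5ap, which together start leukotriene synthesis, were higher in lung (1.48 ± 0.26 and 2.47 ± 0.52), and the leukotriene receptor gene Cysltr2 in SI (0.706 and 0.966 against 7.22 and 5.89 CPM, -2.95 ± 0.50). Lta4h (-1.77 ± 0.30) was higher in SI and Pparg (1.27 ± 0.29, adjusted p = 0.0551 without lung 1) in lung. Checkpoint and costimulatory receptors had 23 of 131 OCRs toward the lung (14 without lung 2), with Pdcd1lg2, the gene of PD-L2, at 8.74 and 11 against 1.54 and 1.43 CPM (2.74 ± 0.31) and Tnfsf8 at 2.2 ± 0.34. Pdcd1lg2 and Tnfsf8 encode ligands of such receptors, not receptors. The checkpoint shares were 17.6% toward the lung and 6.11% toward SI, and those of lipid mediator genes 24.1% and 5.75%. Over all members they were 9.86% and 11.1%. The 8 checkpoint OCRs toward SI included those of the inhibitory receptor genes Ctla4 (-2.27 ± 0.41), Lag3 (9.06 and 6.02 against 38.5 and 26.4 CPM, -2.11 ± 0.27) and Tigit (-1.62 ± 0.30). Inhibitory receptor genes were found on the lung side, too. Pdcd1, the gene of PD-1, had 6 of 8 OCRs called toward the lung and 0 toward SI, and Tigit had 1 toward the lung beside 2 toward SI. Clock genes had 15 OCRs toward the lung and 6 toward SI of 74 (7 and 3 without lung 2, 10 and 5 without SI 1), KLF genes 16 and 6 of 96 (8 and 5 without lung 1, 10 and 4 without lung 2), and hypoxia genes 11 and 4 of 95 (5 and 1 without lung 2, 7 and 1 without SI 1). For clock and KLF genes these were 20.3% and 16.7% toward the lung, and for hypoxia genes 11.6%, which is near the 9.86% of all members. Hlf, a clock output factor, had 41.5 and 50.6 CPM against 9.15 and 10.8 CPM (2.2 ± 0.25), Klf12 2.27 ± 0.26 and Adm, the gene of adrenomedullin, 2.06 ± 0.34. Against these stood Klf4 (-2.49 ± 0.43) and the hypoxia-inducible factor gene Epas1 (5.61 and 6.68 against 12.3 and 18.4 CPM, -1.32 ± 0.28) on the SI side, while Bhlhe41 (-4.04 ± 0.68) had 18.8 CPM in SI 1 but 3.90 CPM in SI 2.

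**Figure D4:**
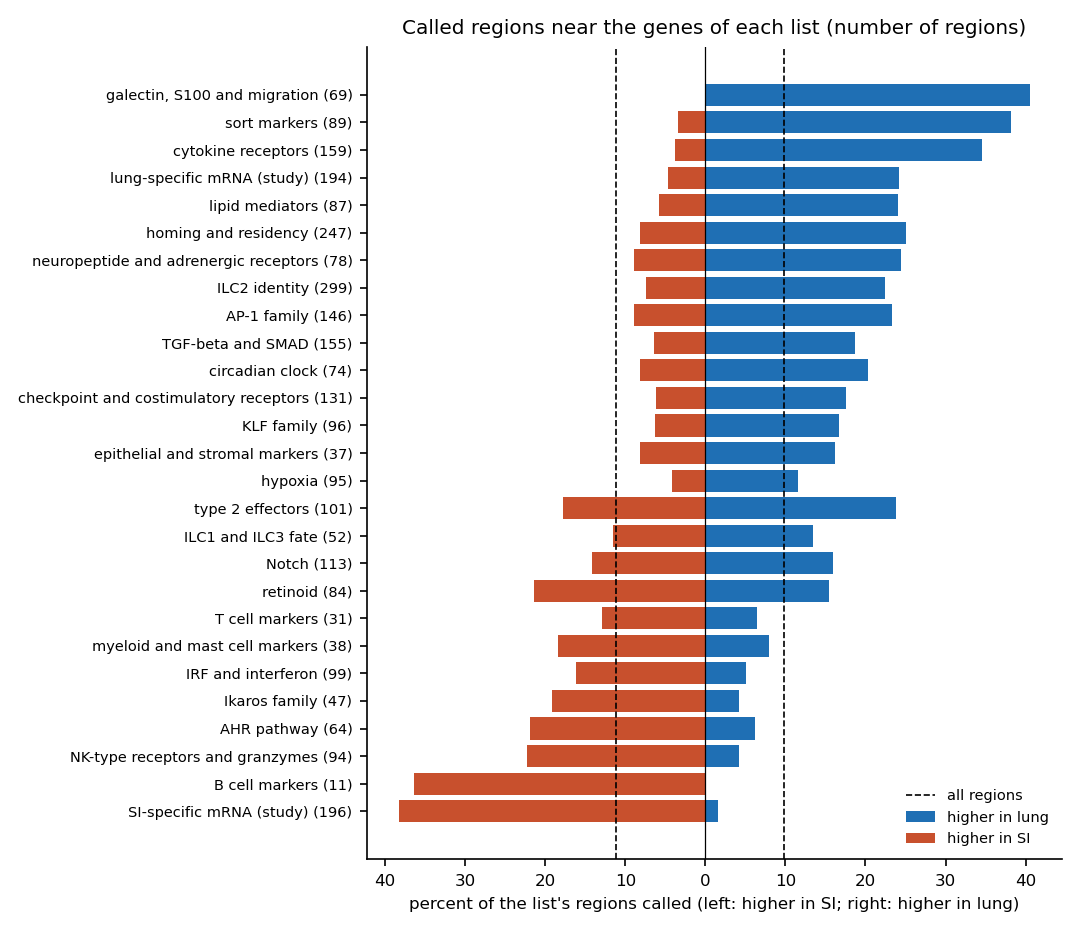
Percent of the OCRs of each gene list that were called higher in lung (blue) or higher in SI (red), with dashed lines at the shares over all members (9.86% toward lung, 11.1% toward SI). The list of galectins, S100 and migration genes reaches 40.6% toward the lung, and the study's list of SI-specific mRNAs 38.3% toward SI.

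Genes of the AHR pathway leaned toward SI. AHR is a transcription factor that is activated by dietary and microbial ligands and is abundant in intestinal lymphocytes. Of 64 OCRs, 14 (21.9%) were called toward SI and 4 (6.25%) toward the lung, with a median of -0.14, and the 4 were all of Notch2 (2.28 ± 0.29 at the most distinct), a gene that stands on the list as a reported target. The counts toward SI and the lung were 9 and 3 without lung 2 and 12 and 7 without SI 2. Ahr itself had 1.06 and 1.05 CPM in the lung and 6.26 and 10.2 CPM in SI in intron 2 (-2.97 ± 0.37, adjusted p = 4.8e-05). The promoter of Ahrr, the repressor that AHR induces, had 2.23 and 1.77 CPM against 11.9 and 16.9 CPM (-2.86 ± 0.32). The promoters of the detoxifying enzymes Cyp1a1 (2.59 and 2.04 against 9.87 and 13.0 CPM, -2.31 ± 0.30) and Cyp1b1 (14 and 14.7 against 26.7 and 33.9 CPM, -1.08 ± 0.23), whose sequences with the AHR letters are given above, were higher in SI as well. In LI ILC2s the 2 libraries had 11.6 and 10.2 CPM at the Ahr OCR, 14.8 and 13.5 CPM at the Ahrr promoter and 12 and 11.2 CPM at the Cyp1a1 promoter. The LI values were therefore near those of SI at these OCRs. In the pancreas the values were 1.12 and 1.40 CPM at Ahr and 2.12 and 1.73 CPM at Ahrr, as in the lung. Tiparp, a further AHR target, had 13.1 and 3.0 CPM in SI and was not called without SI 1 (-3.22 ± 0.62, adjusted p = 0.0570).

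The Ikaros family of zinc finger factors followed the same direction, with 9 of 47 OCRs (19.1%) toward SI and 2 (4.26%) toward the lung. Over all members these shares were 11.1% and 9.86%. Without SI 2, however, 6 were called on either side, and without lung 1 and lung 2 the counts toward SI were 6 and 4. Ikzf3, which encodes Aiolos, had 1.69 and 1.13 CPM in the lung and 5.54 and 7.28 CPM in SI at an OCR in intron 1 (-2.2 ± 0.45, adjusted p = 0.00216), and LI had 3.49 and 8.78 CPM, a range that held both SI values. Ikzf2, which encodes Helios, had 5 of 22 OCRs toward SI, with 4.27 and 4.11 CPM against 13.3 and 26.5 CPM at the most distinct (-2.25 ± 0.39). Ikzf1 differed in both directions: 2 OCRs were called toward the lung, 1 of which had 32.1 and 28.2 CPM against 12.8 and 8.39 CPM (1.51 ± 0.23), and 2 toward SI.

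Genes of interferon regulatory factors and interferon responses had 16 of 99 OCRs (16.2%) toward SI and 5 (5.05%) toward the lung, and their median of -0.44 was the lowest of the functional lists. The count toward SI was 9 without lung 1, 8 without lung 2, 11 without SI 1 and 24 without SI 2. Oasl2, an interferon-induced gene, had 5.72 and 4.64 CPM in the lung and 24.5 and 24.0 CPM in SI in exon 1 (-2.23 ± 0.29). The promoter of Ifit3 (1.8 and 0.552 against 7.03 and 4.08 CPM, -2.26 ± 0.60) and that of Mx1 (1.02 and 1.10 against 6.98 and 1.92 CPM, -2.04 ± 0.56) were called as well, but not without lung 2 or SI 1, the highest adjusted p being 0.161 and 0.411. Of the factors themselves, Irf2 was higher in SI (2.98 and 3.70 against 13.0 and 10.1 CPM, -1.78 ± 0.32), and so was Irf1 (2.2 and 1.88 against 6.26 and 8.19 CPM, -1.83 ± 0.39, adjusted p = 0.0503 without lung 2). The largest difference in the list pointed to the lung. Irf4, which lymphocytes need for effector functions, had 46.0 and 39.3 CPM in the lung and 3.47 and 2.58 CPM in SI at an OCR 37.0 kb downstream of its start (3.83 ± 0.24, adjusted p = 1.4e-07). LI ILC2s had 21.2 and 18.7 CPM there. Another OCR of Irf4 was called toward the lung and 3 toward SI, and 19 were not called. Usp18 (1.84 ± 0.40) and Irf8 (1.23 ± 0.31, above 0.05 without lung 2 or SI 1, with a highest adjusted p of 0.0916) had OCRs called toward the lung, too.

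Natural killer-type receptors and granzymes had 21 of 94 OCRs (22.3%) toward SI and 4 (4.26%) toward the lung, with 13, 12, 15 and 19 toward SI without lung 1, lung 2, SI 1 and SI 2. Both OCRs of Gzma were called toward SI, the one 1.02 kb upstream with 0.549 and 0.304 CPM in the lung and 4.53 and 6.06 CPM in SI (-3.65 ± 0.48). All 3 OCRs of Prf1, the gene of the pore-forming perforin, were called toward SI, with 2.67 and 0.994 CPM against 9.0 and 9.41 CPM at the promoter (-2.36 ± 0.37). Klrb1b and Klrb1, which encode lectin-type receptors, had -3.54 ± 0.54 and -3.27 ± 0.49, and Cd160 -2.25 ± 0.26. These OCRs were nearly closed in the lung libraries except that of Cd160, which had 6.55 and 7.04 CPM in the lung and 24.7 and 39.8 CPM in SI. Fasl (1.55 ± 0.32) had 2 of 23 OCRs called toward the lung and 5 toward SI, and Cd226 (1.68 ± 0.41) lost its call without lung 2 (adjusted p = 0.106).

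Retinoid genes and Notch genes had calls in both directions. Of 84 retinoid OCRs, 13 were called toward the lung and 18 toward SI, but 14 and 12 without SI 2, so that the side with more calls changed (8 and 10 without lung 2, 9 and 11 without lung 1). With all 4 libraries, the 13 and 18 were 15.5% and 21.4%, against 9.86% and 11.1% of all members. Of the retinoic acid and retinoid X receptor genes, Rarg had 3 of 5 OCRs called toward the lung, Rara 7 of 16 and Rxra 2 of 10 with 1 toward SI, and Rarb, Rxrb and Rxrg had no call. An OCR 5.73 kb upstream of Rarg had 32.7 and 24.5 CPM in the lung and 2.50 and 1.46 CPM in SI (3.87 ± 0.33), and the Rara promoter had 48.4 and 50.0 CPM against 14.8 and 13.1 CPM (1.82 ± 0.21), and the OCR of Rxra with the smallest p was higher in lung as well (1.72 ± 0.34). On the SI side were Dhrs3, which encodes an enzyme that reduces retinal, with 10 of 23 OCRs (-1.57 ± 0.24), Hic1, a known retinoid-dependent repressor gene of intestinal lymphocytes, with 5 of 9 (-1.56 ± 0.25), and Cyp26b1, whose product breaks down retinoic acid (0.431 and 0.0552 against 3.23 and 2.26 CPM, -3.57 ± 0.73). Of 113 Notch OCRs, 18 were called toward the lung and 16 toward SI (11 and 7 without lung 2). The 18 and 16 were 15.9% and 14.2% of the Notch OCRs, against 9.86% and 11.1% of all members. Rbpj, the DNA-binding partner of Notch, had 11 of 26 toward the lung, with 16.9 and 22.2 CPM against 4.19 and 3.31 CPM at the most distinct (2.39 ± 0.28). Adam17 (1.32 ± 0.27) was higher in lung as well. All 4 OCRs of Dtx1, a Notch target gene, were called toward SI, with 0.627 and 0.386 CPM in the lung, 8.57 and 11 CPM in SI (-4.28 ± 0.53) and 1.22 and 1.26 CPM in LI. Dtx1 was thus open in SI and nearly closed in LI. Furin (-3.03 ± 0.61) and Adam10 (-2.19 ± 0.49, adjusted p = 0.0651 without lung 2) were higher in SI. Genes of ILC1 and ILC3 fate had 13.5% of 52 OCRs called toward the lung and 11.5% toward SI, near the 9.86% and 11.1% of all members. Of these, 7 were higher in lung, among them OCRs of Ifng (27.4 and 31.0 against 5.10 and 7.25 CPM, 2.23 ± 0.24) and Il1r1 (1.53 ± 0.26), and 6 toward SI, all of Prdm1, which encodes the repressor Blimp-1 (1.76 and 1.90 against 16.5 and 8.53 CPM, -2.76 ± 0.40). Without SI 1, 3 OCRs of this list were called toward SI. Il17a (1.37 ± 0.34) was not called without lung 1 or SI 1.

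Markers of other cells were examined in the same libraries, and SI 1 stood apart in some of them. Of 11 OCRs of B cell markers, 4 were called toward SI (2 without SI 1, 2 without lung 1 and 5 without SI 2), and their summed level was 36.3 and 36.2 CPM in the lung and 86.1 and 59.5 CPM in SI. No OCR was assigned to Cd79a, Ms4a1 or Pax5, which define B cells, and the calls were of Cd79b (1.41 and 1.41 against 8.52 and 6.79 CPM) and Ebf1 (0.431 and 0.856 against 8.18 and 1.95 CPM, not called without SI 1). For myeloid and mast cell markers the sums were 497 and 547 CPM in the lung and 431 and 531 CPM in SI, with 3 of 38 OCRs called toward the lung and 7 toward SI (0 and 6 without SI 1, 8 and 7 without SI 2, 1 and 4 without lung 1 or lung 2). These 7 were of Kit (-2.31 ± 0.31) and Spi1, the myeloid and B cell factor PU.1, whose promoter had 0.941 and 0.386 CPM in the lung and 9.29 and 2.19 CPM in SI (-3.13 ± 0.60), and no OCR was assigned to Lyz2, Csf1r or Fcer1a. T cell markers (255 and 233 against 223 and 235 CPM, 2 and 4 of 31 called, 1 and 0 without lung 2) and epithelial and stromal markers (255 and 265 against 260 and 216 CPM, 6 and 3 of 37 called) had sums in which the libraries of lung and SI overlapped. Cd3e had 1 of 3 OCRs called toward SI (-1.59 ± 0.39), and Epcam had 8.31 and 7.34 CPM in the lung and 19.5 and 10.0 CPM in SI (-0.91 ± 0.29), neither of which held without lung 2. Over the OCRs called toward SI, 418 (7.52%) had more than 3 times the level in SI 1 than in SI 2, and 13 the reverse, whereas over those called toward the lung 1 OCR differed so between the lung libraries. OCRs with such a surplus in SI 1 were named above at Wdfy4, A530040E14Rik, Tgfbr1, Tiparp, Mx1, Il10 and Bhlhe41. The part of other cells in them was not tested, and in bulk libraries more cells of a type and a more open OCR per cell cannot be told apart.

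LI, pancreas and BM, whose libraries share the estimate of the spread but do not enter the contrast of lung with SI, gave a further reading of the called OCRs. For each OCR called between lung and SI, the level in another tissue was placed on a scale on which SI is 0 and lung 1. Over the OCRs higher in lung, the median position was 0.90 in the pancreas, 0.62 in LI and 0.45 in BM. Over those higher in SI it was 0.65 in the pancreas, 0.32 in LI and 0.75 in BM. Of the OCRs higher in lung, 81.2% were nearer to the lung in the pancreas, 62.5% in LI and 46.8% in BM. Of those higher in SI, 71.9% were nearer to SI in LI, 34.6% in the pancreas and 29.1% in BM. The contrast of pancreas with LI, which shares no library with that of lung with SI, called 626 members (1.25%) toward the pancreas and 1007 (2.01%) toward LI. Among the OCRs higher in lung, 457 (9.27%) were called toward the pancreas and 56 (1.14%) toward LI, and among those higher in SI 8 (0.144%) toward the pancreas and 536 (9.64%) toward LI. Leaving out lung 1 gave 295 OCRs higher in both lung and pancreas, without SI 1 and SI 2 there were 693 and 736, and 353 OCRs were higher in both SI and LI without lung 2. A positive difference of pancreas over LI was found in 75.3% of the OCRs higher in lung, in 18% of those higher in SI and in 48.9% of all members.

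Between lung and SI on the one hand and pancreas and LI on the other, the difference itself was tested: it moved toward the lung at 1236 OCRs (2.47%) and toward SI at 558 (1.12%). Of the 1236, 1074 were OCRs called higher in lung. The OCRs named below had been chosen for their lung to SI difference, which is also part of the excess. That choice favours an excess over pancreas and LI, and the adjusted p does not correct for it. Pancreas and LI cells had both been sorted with the lung gate, which includes ST2, whereas SI cells had not. The part of the gate in an excess cannot be told apart from that of the tissue, also at Il1rl1, the gene of ST2. Il1rl1 in intron 8 differed by 1.53 between pancreas and LI (adjusted p = 0.0109), and the lung to SI difference exceeded it by 3.58 (adjusted p = 9.1e-04). Nrp1, Irf4 and Smad3 had excesses of 2.72, 3.32 and 2.70 (adjusted p = 2.4e-04, 9.0e-05 and 0.00121). On the SI side Dtx1 (-3.98, adjusted p = 0.00910) and Ret (-3.36, adjusted p = 0.0202) were more distinct between lung and SI than between pancreas and LI. For Ahr and Ahrr no such excess passed. Ahr (-3.13, adjusted p = 7.6e-04) and Ahrr (-2.85, adjusted p = 3.8e-04) were lower in the pancreas than in LI, by about as much as in the lung against SI, and the excesses of 0.16 and 0.00 did not pass (adjusted p = 0.927 and 1.0). Map4k3, too, was lower in the pancreas than in LI (-3.28, adjusted p = 1.1e-04), with an excess of -0.88 (adjusted p = 0.355). Il9 (-2.84, adjusted p = 0.00202) had an excess of -1.82 that did not pass (adjusted p = 0.109).

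Motif letters were distributed unequally between the OCRs of the tissues, here counted in 500 bases around the centre on both strands. The GATA letters were found in 37.0% of the OCRs higher in lung, 28.2% of those higher in SI and 24.7% of all members, and those of AP-1 in 36%, 29.1% and 23.2%. Both were most frequent on the lung side. On the SI side the AP-1 share was above that of all members. The GATA share there exceeded it by less, and hardly at all outside promoters. The IRF letters were found in 12.3% of the OCRs higher in SI, 6.23% of those higher in lung and 7.23% of all members. The RUNX letters had 24.8%, 21.8% and 17.3% in the same order. The letters of the insulator factor CTCF, CA with AGG 2 bases on and GGC after 1 more base, were rare among called OCRs (2.78% in lung, 3.92% in SI, 7.53% in all), and most frequent, at 10.3%, among OCRs with a log2 fold change between -0.5 and 0. The share with the AP-1 letters rose to 44.7% among OCRs with a log2 fold change above 3, against 26.4% below -3, and that with the RUNX letters was 23.7% and 30.4% at these ends. The AHR letters were found in 2.46% of the OCRs higher in SI, 1.58% of those higher in lung and 2.01% of all. Among OCRs outside promoters the GATA letters were found in 38.3% (lung), 29.1% (SI) and 28.3% (all), so that the SI share was near that of all. The IRF letters were found in 6.47%, 12.5% and 7.80% of these OCRs (lung, SI, all). For the ETS letters CAGGAAG the shares were 34.4%, 29.2% and 27.6%. OCRs are not independent of each other, and no test was made of these shares.

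**Figure D5:**
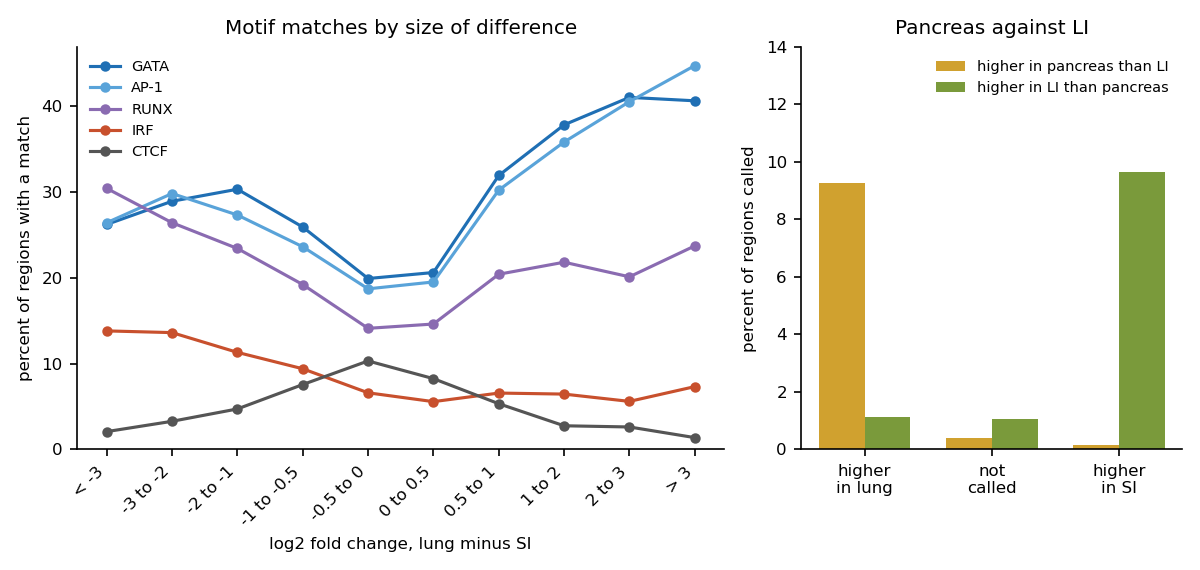
Left, percent of OCRs with a match to each of 5 motifs (vertical axis) by the log2 fold change of lung over SI (horizontal axis), in which AP-1 reaches 44.7% above 3 and CTCF 10.3% between -0.5 and 0. Right, percent of OCRs called in pancreas against LI for the OCRs higher in lung, not called and higher in SI: 9.27% of those higher in lung were called toward the pancreas and 9.64% of those higher in SI toward LI.

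Finally, the OCRs were set beside the genes that the study had found specific to lung or SI ILC2s in single-cell RNA-seq, which is another assay on other cells. Of the 44 lung-specific genes, 29 had an OCR. Their 194 OCRs were called toward the lung in 47 (24.2%) and toward SI in 9 (4.64%), with a median of 0.40. The 39 SI-specific genes, 36 of them with an OCR, had 75 of 196 OCRs (38.3%) called toward SI and 3 (1.53%) toward the lung, with a median of -0.57. The counts toward the lung and SI were 13 and 65 for the SI-specific genes without SI 2, 1 and 54 without lung 2, and 2 and 73 without SI 1. For the lung-specific genes they were 45 and 3 without lung 1, and 32 and 4 without lung 2. Beside Nrp1, the promoter of Ctla2a (93.6 and 85.5 CPM in the lung, 16.3 and 27.2 CPM in SI, 2.04 ± 0.23) and an OCR 156 kb upstream of Btg1 (36.8 and 46.6 against 11.9 and 11 CPM, 1.87 ± 0.23) were the most distinct among the lung-specific genes. Tgm2, Atp8a2 and Pde1c, which encode a transglutaminase, a phospholipid flippase and a cyclic nucleotide phosphodiesterase, led the SI-specific genes. Pde1c had 2.27 and 2.13 CPM in the lung and 38.3 and 38.8 CPM in SI in intron 1 (-4.13 ± 0.29, adjusted p = 2.7e-07). For Tgm2 the values were 0.392 and 0.166 against 5.78 and 6.90 CPM (-4.54 ± 0.58), and 6 of its 8 OCRs were called toward SI. Atp8a2 had 0.431 and 0.248 against 6.11 and 7.70 CPM (-4.36 ± 0.55). Ccl5, a gene of the lung list, had the OCR higher in SI given above and no OCR called toward the lung. Furin and Frmd4b (-1.74 ± 0.44, not called without lung 1 or SI 2) of the lung list had their OCR with the smallest p higher in SI, but the promoter of each was called higher in lung. Nrip1 (1.79 ± 0.28) of the SI list had its OCR with the smallest p higher in lung, but 6 of its 25 OCRs were called toward SI and 2 toward the lung. Dkk3 (1.09 ± 0.32, not called without lung 2 or SI 1) of the SI list had 1 of 11 OCRs called, toward the lung. Of 2 further genes that the study names for these tissues, the OCRs with the smallest p did not pass: Yes1 (0.58, adjusted p = 0.0829) and Irf3 (-0.14). No OCR was assigned to Stab1.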

How the data were processed

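ATAC-seq reads of 150 bases, paired-end, from sorted mouse ILC2s of 5 tissues (10 libraries, 4 of them compared here) had been processed by the authors: FastQC 0.11.9, Bowtie2 2.2.9 on mm10 with uniquely mapped reads kept, SAMtools 1.8, MACS2 2.1.1 for peaks, peaks found in both replicates merged with HOMER, and raw counts per region with bedtools multicov. The deposited table holds these whole-number counts, not normalized, and peaks stem from all tissues together. Treatment of duplicates, of blacklisted regions and of the Tn5 offset is not given in the sources used here, so counts may include PCR duplicates, and intervals cover counting error only in so far as replicates show it. Depth ranged from 10282987 to 32797872 assigned counts over the 10 libraries.

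Counts of at least 1 over the 4 libraries defined the members. TMM scaling and edgeR 4.0.16 (R 4.3.3) quasi-likelihood tests were run on the 10 libraries with tissue as the only factor, for lung minus SI, pancreas minus LI and the difference of both, with Benjamini-Hochberg adjustment over all members and a threshold of 0.05. The study itself used DESeq2 between pairs of tissues, which was kept as an alternative (DESeq2 1.42.0). Scripts were tested on simulated counts first. Regions were assigned to the nearest mm10 RefSeq TSS. Motifs were read in 500 bases at region centres. Printed sequences are the 200 bases within the central 500 that held the most matches, the nearest to the centre where windows tied.

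Named were the 10 regions (6 for promoters) with the largest fold change in either direction at 5 CPM or more, the 8 genes with most calls, per list up to 3 called genes in either direction by the fold change of the region with the smallest p, all genes of sort markers, ILC2 identity and type 2 effectors, and genes that the study names. A few genes that this rule selects are not reported here. Further genes of the lists (Il10, Cyp1a1, Cyp1b1, Irf1, Irf2, Prf1, Cd160, Cxcr4, Cd44, Tgfbr2, Pdcd1), the interaction values and the printed sequences were chosen after their values were seen. The members and lists were chosen with earlier results of these data known, and no list was tested. Replicate numbers were not used to pair the samples. Deviations of lung 1 and SI 1 correlated at 0.175, and the same correlations over tissues ranged from -0.218 to 0.196. With 2 libraries per tissue, these values cannot exclude that libraries of the same number shared a batch. Alternatives were other scalings, filters, tools and GC correction, a replicate block, thinned counts and leaving out each library.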

Additional observations from a re-analysis of the deposited data

How the results depend on the processing

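The direction of more calls toward SI than toward the lung, a small excess, was not stable: 4930 and 5559 OCRs were called toward lung and SI with TMM, 4805 and 5527 with library size alone, 5065 and 5488 with RLE size factors, 5356 and 5728 with DESeq2 on 10 libraries, 4309 and 4540 with DESeq2 and 4024 and 4092 with edgeR on the 4 libraries, and 4856 and 5362 with counts thinned to the smallest library, but 5639 and 5353 with offsets for GC content and width. Scaling on regions outside repeats and sex chromosomes, added after seeing the data, gave 5202 and 5309. At an unadjusted p under 0.05, 8515 OCRs were higher in SI, and promoters made up 9.23% (lung) and 8.88% (SI) of the OCRs. Leaving out 1 library in turn gave 2865 to 5712 OCRs toward the lung and 2230 to 5476 toward SI, promoter shares of 4.73% to 11.5% and 4.65% to 10.9%, GATA shares of 35.0% to 40.7% and 24.9% to 32.0%, IRF shares of 5.83% to 6.18% and 11.4% to 12.6%, 295 to 736 OCRs higher in lung and pancreas, and 353 to 748 higher in SI and LI. The replicate block, with 5062 and 5525 OCRs (485 and 604 also called for pancreas and LI), changed no count by over 1.5 times. Whether libraries of the same number shared a batch is not known. No named OCR that was called changed its direction under these alternatives. Without lung 2, the deepest library, 88 of 639 named OCRs lost their call; the cause was not tested. The 639 named OCRs include some, such as those of Klrg1 and Il5, that were not called in the main fit and so had no call to lose. Depth limits what can be said of OCRs near 1 CPM.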
